A study of Rattus norvegicus with 2 samples.

Results

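A set of 7 genes of the rat uterus was followed in the transcriptome of cultured myometrial progenitor cells. They are the calcium-binding protein gene S100g, the thyroid hormone deiodinase genes Dio2 and Dio3, the glutamate receptor gene Gria2, the growth factor gene Gdf10, the muscle protein gene Pdlim3 and Car8, a gene of the carbonic anhydrase family. They were chosen by symbol because they have been reported as reprogrammed by early estrogen exposure in rat uterus, with Dio3 added as the counterpart of Dio2. All 7 have a row in the authors' deposited table, which lists 17327 genes. Of the 7, 6 had reads and passed a minimum mean of 20 normalised reads, and Gdf10 was listed at 0.

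The cells were myometrial progenitor cells, the precursors of the smooth muscle of the uterine wall, labelled as Rattus norvegicus. One group was labelled VEH-exposed and the other DES-exposed, abbreviations that in studies of developmental exposure usually mean a vehicle and the synthetic estrogen diethylstilbestrol. Each group was 1 library (n = 1) of cells pooled from 5 animals and grown for 1 to 3 passages, so nothing below has a replicate check and the spread between animals cannot be seen. Strain, dose, age at exposure and age at sampling are unknown, not given in the sources used here. The comparison asks how transcript levels differ between exposed and unexposed cells.

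The table gives a mean over both libraries and a fold change, and it does not name the group on top of that fold change. Reads of each library were recovered from the means, and each member with reads had only 1 possible pair of whole read numbers. The library on top of the deposited fold change is called the numerator library and the other one the denominator library, and read numbers are given in that order. Which of them is DES was not settled, so higher and lower refer to these libraries and not to the exposure. They held 106599579 and 104793348 reads in the listed genes. Intervals are 95% and, like the floor of 3 reads used where a library had 0, cover counting error only. A gene is called higher or lower when its log2 ratio, with 1 normalised read added to each side, was at least 1 in size, its mean was at least 20 and its interval excluded a ratio of 1. In libraries of pooled cells, fewer cells of a type and less RNA per cell cannot be told apart. Gene lengths were not used, so levels are compared between libraries and never between genes.

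Estrogen given while the reproductive tract is forming can leave lasting differences in how its genes respond in the adult, a phenomenon called developmental reprogramming. Reprogrammed genes are often ones that respond to estrogen in the adult uterus, and S100g is the classical example in the rat. The deiodinases act on another hormone: DIO2 removes an outer-ring iodine from thyroxine and so makes the active hormone T3, while DIO3 removes an inner-ring iodine and inactivates both.

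By the rule above, 5 members were higher in the numerator library, against 13.9% of all 11212 genes above the minimum. One member, Car8, was lower, against 12.7% of all genes. Past the limit in either direction were 26.7% of all genes. The log2 ratios ran from -4.49 for Car8 to 12.10 for S100g, with a median of 4.50, while the median over all genes was 0.01. S100g, Dio2 and Pdlim3 had under 20 normalised reads in the denominator library and passed the minimum through the numerator library alone. Their ratios could therefore hardly have been small, and neither the count nor the median is offered as support for a shift of the group. Together the members took 7038 numerator and 1573 denominator reads, of which S100g and Car8, respectively, made up most.

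**Figure D1:**
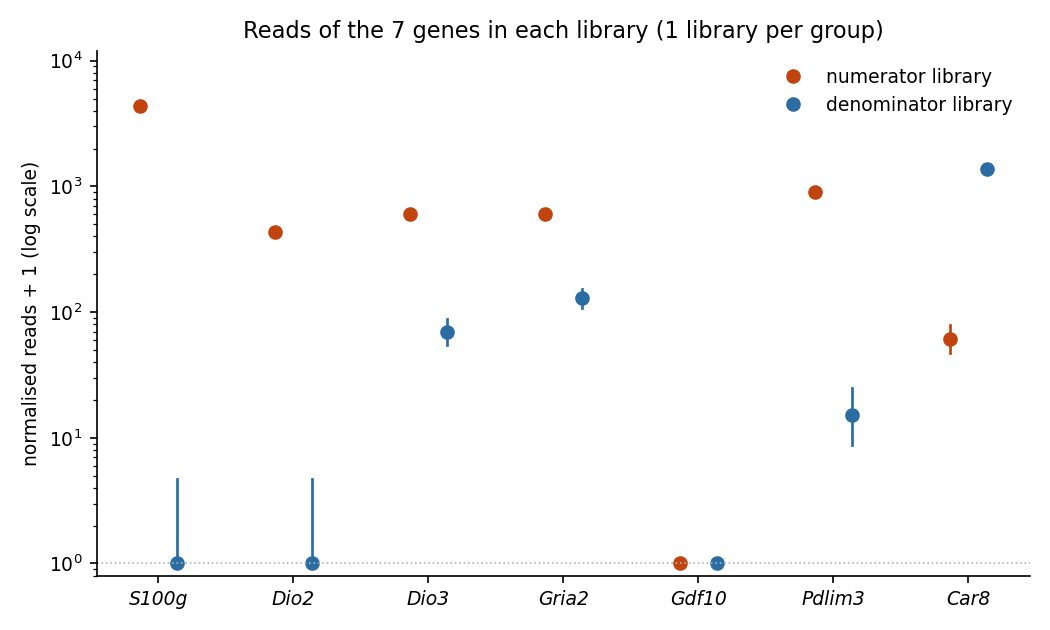
Normalised reads plus 1 of each of the 7 genes in the numerator library (orange) and the denominator library (blue), on a log scale; vertical lines are exact Poisson 95% intervals, hidden by the point where short, and the dotted line marks 0 reads. S100g and Dio2 had 0 reads in the denominator library, Gdf10 is listed at 0 for both, and Car8 is the member with more reads in the denominator library.

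Dio2, the activating deiodinase, was read 435 times in the numerator library and 0 times in the other. Against the floor of 3 reads per library it was 142-fold higher, and the lower end of its interval was 115. Scaled to 1000000 reads in listed genes, Dio2 had 4.08 reads against a limit of 0.0286. Dio3, the inactivating deiodinase, had 606 and 68 reads. It was 8.75-fold higher in the numerator library, with an interval of 6.80 to 11.4. The genes for both opposing enzymes thus had more reads in the same library. Dio1, the liver and kidney deiodinase, was listed at 0.

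The 250 bases before the RefSeq start of both deiodinase genes are shown. These genes stand on the same chromosome, differ in the same direction and have unlike base content in this window. Capitals mark matches to the motifs searched on both strands. The Dio2 stretch is chr6:115410595-115410844 on the minus strand of GRCr8 and the Dio3 stretch is chr6:135106822-135107071 on the plus strand of GRCr8, both written 5′ to 3′ along the gene.
Dio2: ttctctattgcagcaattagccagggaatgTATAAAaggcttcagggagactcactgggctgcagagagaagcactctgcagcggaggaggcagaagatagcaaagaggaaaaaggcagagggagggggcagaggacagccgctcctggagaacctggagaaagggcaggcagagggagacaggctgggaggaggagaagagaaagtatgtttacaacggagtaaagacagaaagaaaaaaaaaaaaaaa
Dio3: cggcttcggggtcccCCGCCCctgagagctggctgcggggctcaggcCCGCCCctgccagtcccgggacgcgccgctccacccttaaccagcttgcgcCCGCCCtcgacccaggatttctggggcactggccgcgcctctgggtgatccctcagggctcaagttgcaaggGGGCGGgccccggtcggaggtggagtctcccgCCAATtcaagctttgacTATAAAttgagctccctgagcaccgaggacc

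The TATA box, searched as TATAAA, was found in both stretches. It began 220 bases before the RefSeq start in Dio2 and 31 bases before it in Dio3, and 12.9% of 33469 promoters of this length held it. Dio3 also held 4 GC boxes (GGGCGG, in 30.5% of promoters) and 1 CCAAT box (CCAAT, in 34.0%), none of which was found in Dio2. GC content was 68.8% in Dio3, with 19 CG pairs, and 49.6% in Dio2, with 3. The palindromic estrogen response element was in neither stretch, nor was its half-site TGACC, which overlaps it. Of all promoters, 0.0239% held the full element and 35.4% the half-site. The cyclic AMP response element TGACGTCA and the AP-1 site TGANTCA were in neither stretch, against 1.59% and 6.34% of promoters. A missing match says only that these letters are not in this window.

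Genes that carry thyroid hormone into cells or act with its receptors mostly lay within 2-fold. Of 11 such genes above the minimum, 3 were higher and 7 lay within 2-fold, with a median log2 ratio of -0.09. Slc7a8, an amino acid carrier that also takes up iodothyronines, had 2089 and 140 reads and was 14.7-fold higher (interval 12.3 to 17.5). Crym, whose product binds T3 in the cytosol, had 2414 and 325 reads and was 7.29-fold higher (interval 6.49 to 8.22).

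The receptor genes did not move together. Thrb, encoding thyroid hormone receptor beta, had 54 and 12 reads and was 4.42-fold higher (interval 2.34 to 9.08). Thra, encoding receptor alpha, had 5424 and 10245 reads, which is 1.92-fold lower and within the 2-fold limit. Among 6 T3-responsive genes above the minimum, 2 were higher and 1 was lower: Me1 (malic enzyme) was 2.71-fold higher, Hr (a corepressor of nuclear receptors) 2.21-fold higher and Bcl3 5.42-fold lower. Klf9, a well known T3 target, had 5419 and 5322 reads, the pair of 3 possible ones nearest to its deposited fold change. That pair is exactly the ratio of the size factors by which the libraries were scaled. Its ratio of 1.00 therefore holds only relative to that scaling and is no independent check of it.

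Deiodinases are selenoproteins, made by reading a stop codon as selenocysteine. Of 10 genes for selenoprotein synthesis and other selenoproteins, 9 lay within 2-fold and Pstk, the kinase of the selenocysteine tRNA pathway, was lower by a factor of 3.36 (interval 3.09 to 3.66). All 4 measured genes for the ubiquitination machinery that controls DIO2 turnover lay within 2-fold, among them Wsb1 with 10447 and 9335 reads and Usp33 with 7243 and 7655.

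S100g encodes calbindin-D9k, a small EF-hand protein that buffers calcium and, in the rat uterus, is induced by estrogen. Its 4421 reads were all from the numerator library, with 0 from the other. Scaled to 1000000 reads that is 41.5 against a limit of 0.0286. At the floor of 3 reads per library S100g was 1447-fold higher, and the lower end of its interval was 1177. Among the 160 genes above the minimum with no read in the denominator library, 1.43% of the genes above it, S100g had the sixth most reads; the median of these genes was 152 reads. Ctps2, a CTP synthase gene that overlaps S100g in RefSeq's annotation, had 9226 and 9033 reads. Use of strand in the authors' counting is unknown, not given in the sources used here.

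Other S100 genes were measured as well. S100a8 and S100z had 1 and 0 reads each, S100a9 was listed at 0 and S100a14 was not analysed here. Of 12 listed genes above the minimum, S100g included, 7 were higher, 1 was lower and 4 lay within 2-fold, with a median log2 ratio of 1.18. The shares among all genes above the minimum were 13.9% higher and 12.7% lower. S100a16 had 7078 and 390 reads and was 17.8-fold higher (interval 16.1 to 19.8). S100a13 was 4.76-fold, S100a6 3.20-fold, S100a4 2.74-fold, S100a1 2.38-fold and S100a5 2.18-fold higher. S100a3 was the lower member, with 54 and 414 reads (7.81-fold lower, interval 5.87 to 10.6). S100a10, S100a11, S100b and the binding partner gene S100pbp lay within 2-fold, and S100g was the only listed gene above the minimum with 0 reads in a library.

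Vitamin D is the other classical regulator of S100g, in the intestine. Vdr, the vitamin D receptor gene, had 28 and 24 reads, a ratio of 1.15 whose interval of 0.640 to 2.06 includes 1. Cyp24a1, the receptor's most responsive target, was listed at 0, as were the epithelial calcium channel genes Trpv5 and Trpv6 and the related calbindin gene Calb1. Cyp27b1, which makes the active hormone, was 2.35-fold lower (74 and 171 reads), and Cyp27a1 4.19-fold lower (157 and 646 reads). The plasma membrane calcium pump genes Atp2b1 and Atp2b4 lay within 2-fold, at 1.22-fold and 1.07-fold higher.

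Estrogen acts on S100g through its receptors. Esr1, with 1824 and 165 reads, was higher by a factor of 10.9 (interval 9.25 to 12.8), and Pgr, the progesterone receptor gene and an estrogen target itself, was 2.78-fold higher. Gper1, the membrane estrogen receptor gene, went the other way with 1 and 49 reads (49.9-fold lower, interval 8.55 to 2010), and Esr2, encoding estrogen receptor beta, had 0 and 3 reads. S100g is also expressed by uterine epithelium. The listed epithelial markers that had reads had more in the numerator library, apart from Epcam, and only Krt18 was called higher. Epcam had 0 and 7 reads, Cdh1 was listed at 0, and the junction gene Cldn3 had 21 and 2 reads, below the minimum (ratio 10.3, interval 2.52 to 90.7). The keratin gene Krt18, which is not confined to epithelium, had 553 and 61 reads and was 8.90-fold higher (interval 6.83 to 11.8). Krt8 had 2473 and 1431 reads, a ratio of 1.70 within the limit. Of the 6 epithelial markers, 2 were above the minimum, and the summed level of the list was 3020 and 1515 normalised reads. Their part in the S100g result was not tested.

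Gria2 encodes GluA2, the subunit that makes AMPA-type glutamate receptors impermeable to calcium. The numerator library gave 609 reads and the denominator library 127, a 4.71-fold higher level in the first (interval 3.88 to 5.75). Its 3 paralogues differed among themselves. Gria1 was read 214 and 0 times (70.1-fold higher at the floor of 3 reads, lower interval end 56.5). Gria3 had 3541 and 8604 (2.47-fold lower, interval 2.38 to 2.57), and Gria4 was listed at 0. In the numerator library Gria1 and Gria2 were thus detected beside Gria3, and in the denominator library Gria1 was not.

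Over all ionotropic glutamate receptor genes, 7 of 11 above the minimum were higher, 2 were lower and 2 lay within 2-fold (median log2 ratio 3.08). Among all genes above the minimum, 13.9% were higher and 12.7% lower. Gria1, Grik1, Grin1 and Grin2a passed the minimum through the numerator library alone, and Grin3b through the denominator library alone. Their ratios could hardly have been small, so no shift of the family is read from the count or median. In sum the list had 13510 and 15028 normalised reads. Grin2a, an NMDA receptor subunit gene, had 1033 and 4 reads and was 254-fold higher (interval 98.8 to 933). The kainate receptor gene Grik1 (81 and 0 reads) was 26.5-fold higher at the floor of 3 reads, with a lower interval end of 21.1. Grik2, another (2090 and 242 reads), was 8.48-fold higher. Grin3b stood at the other end with 10 and 652 reads (66.4-fold lower, interval 35.9 to 139).

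Partners of AMPA receptors mostly lay within 2-fold, 8 of 10 above the minimum, and 2 were lower. Cacng7, an auxiliary subunit gene of the TARP family, was read 6 and 1491 times (253-fold lower, interval 116 to 691). Adarb1, the RNA editase that recodes the pore site of Gria2 transcripts, had 568 and 3233 reads and was 5.80-fold lower (interval 5.30 to 6.35). Neural markers gave no common picture: Snap25 had 5 and 0 reads, Syp had 1 and 0, Sox10 was listed at 0, and of the 3 above the minimum only Ncam1 passed 2-fold (2.73-fold higher). The defining synaptic markers were thus at or near 0 in both libraries.

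Pdlim3 encodes ALP, a protein with a PDZ and a LIM domain that binds alpha-actinin in muscle. The numerator library gave 906 reads and the denominator library 14, and the ratio was 63.6 (interval 37.7 to 117). Among its relatives, Pdlim5 was 2.52-fold higher and Pdlim4 2.18-fold lower, while Pdlim1, Pdlim2, Pdlim7 and Ldb3 were between 1.07-fold and 1.49-fold higher and within the limit. Of the alpha-actinin genes, Actn2, the muscle form, was read 871 and 38 times (22.5-fold higher, interval 16.3 to 32.0) and Actn1 was 2.32-fold higher. Actn4 was 1.10-fold higher, and Actn3 had 16 and 25 reads with an interval that includes 1.

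General smooth muscle markers differed far less than Pdlim3. All 8 were above the minimum, 2 were higher and 6 lay within 2-fold, with a median log2 ratio of 0.67. Tagln (transgelin) was 2.57-fold and Actg2 (enteric smooth muscle actin) 2.11-fold higher, while Acta2 was 1.57-fold and Myh11 1.61-fold higher. Their part in the Pdlim3 result was not tested; in sum they were 1658820 and 933770 normalised reads, so the markers of the labelled lineage were present in both libraries.

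Car8 encodes a carbonic anhydrase-related protein that has lost its enzymatic activity and binds the IP3 receptor ITPR1, a calcium release channel. Only 61 reads came from the numerator library and 1364 from the denominator library, and Car8 was 22.8-fold lower in the former (interval 17.6 to 29.9). Of 8 genes of the family above the minimum, 5 were higher, 3 were lower and 0 lay within 2-fold. Over all genes above the minimum, 13.9% were higher and 12.7% lower. Car2 passed the minimum through the numerator library alone, and 5 further genes of the family had reads but lay below it. Beside Car8, the lower members were Car6, the secreted form (69 and 1128 reads, 16.6-fold lower, interval 13 to 21.5), and Car11, another inactive relative (956 and 3507 reads, 3.74-fold lower, interval 3.48 to 4.02).

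The 5 higher carbonic anhydrase genes all encode active enzymes. Car9, the membrane enzyme known as a hypoxia marker, had 74781 and 20676 reads, a 3.55-fold higher level. The mitochondrial Car5b was 5.73-fold higher (5378 and 922 reads), the membrane-bound Car12 4.45-fold (317 and 70 reads) and the cytosolic Car13 9.40-fold (354 and 37 reads). Car2 was read 46 and 0 times, at least 15.1-fold higher. Itpr1, the partner of CAR8, had 36063 and 28089 reads, a ratio of 1.26 within the limit, and Itpr3 was 2.33-fold higher.

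**Figure D2:**
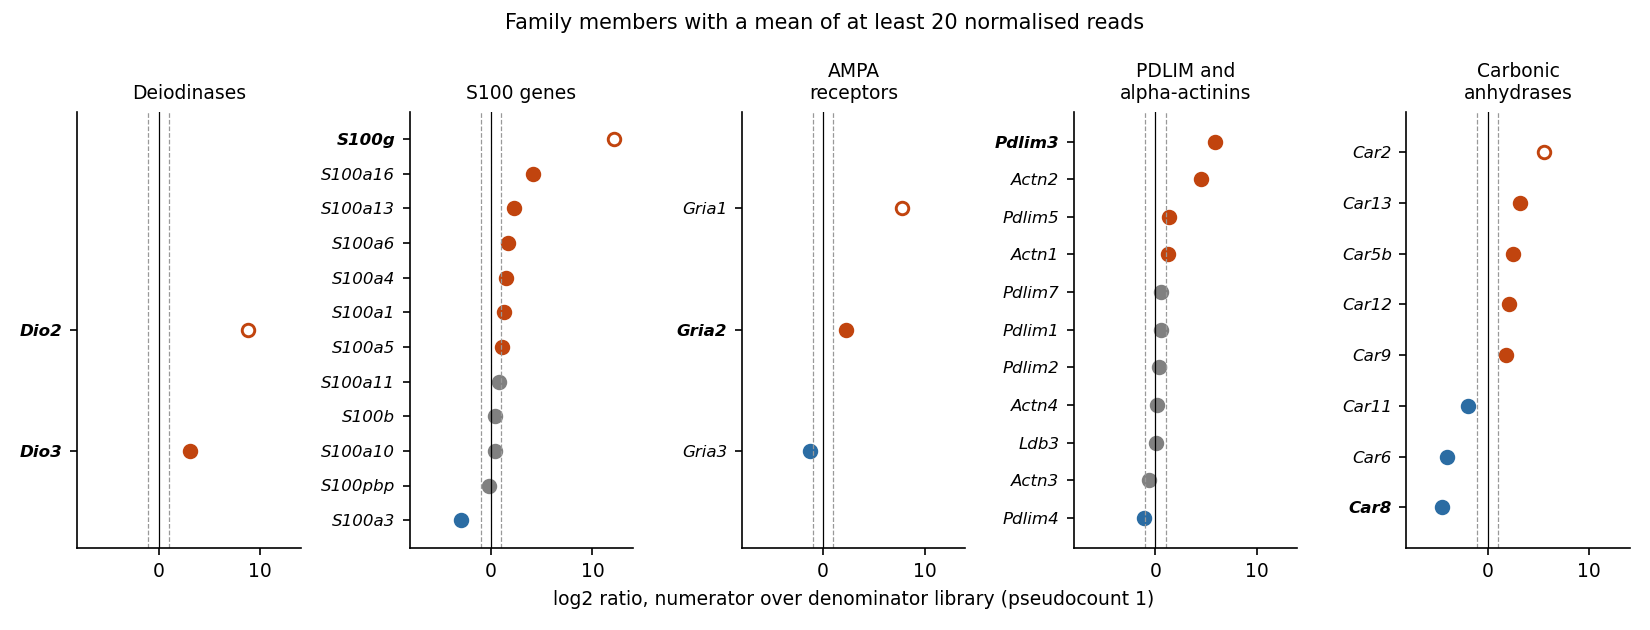
Log2 ratios, numerator over denominator library with a pseudocount of 1, of genes above the minimum in the families of the members (member names in bold; of the glutamate receptors, the AMPA type). Orange is higher, blue is lower and grey is within 2-fold (dashed lines); open circles had 0 reads in a library, so their place depends on the pseudocount. S100g and Pdlim3 lead their families, and Car8 stands lowest among the carbonic anhydrases.

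Gdf10 encodes BMP3b, a TGF-beta superfamily ligand. The table lists it at 0 for both libraries, which at 3 reads per library allows up to 0.0281 and 0.0286 of every 1000000 reads. Its closest relative Bmp3 had 11330 and 7204 reads, a ratio of 1.54. Of 11 genes for related ligands, receptors and SMADs above the minimum, 10 lay within 2-fold and Acvr2b was lower, with 16 and 82 reads (5.22-fold, interval 3.03 to 9.56). The receptor genes Tgfbr1 (1.49-fold lower) and Tgfbr3 (1.66-fold higher) were read well in both libraries.

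Other genes reported beside these in rat models, taken from lists made with earlier results of these data known, went both ways. Mmp3, a matrix protease gene, was 115-fold higher and Nr2f2, a nuclear receptor gene, 3.77-fold lower, and the keratin gene Krt19 had 11 and 55 reads (5.09-fold lower, interval 2.64 to 10.8). Of 6 measured genes for the histone methylation machinery linked to reprogramming, 5 lay within 2-fold. Ezh2, the H3K27 methyltransferase gene, had 1530 and 2861 reads (1.90-fold lower), and Kdm6b, an H3K27 demethylase gene, had 3678 and 7954 (2.20-fold lower, the only 1 past the limit).

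**Figure D3:**
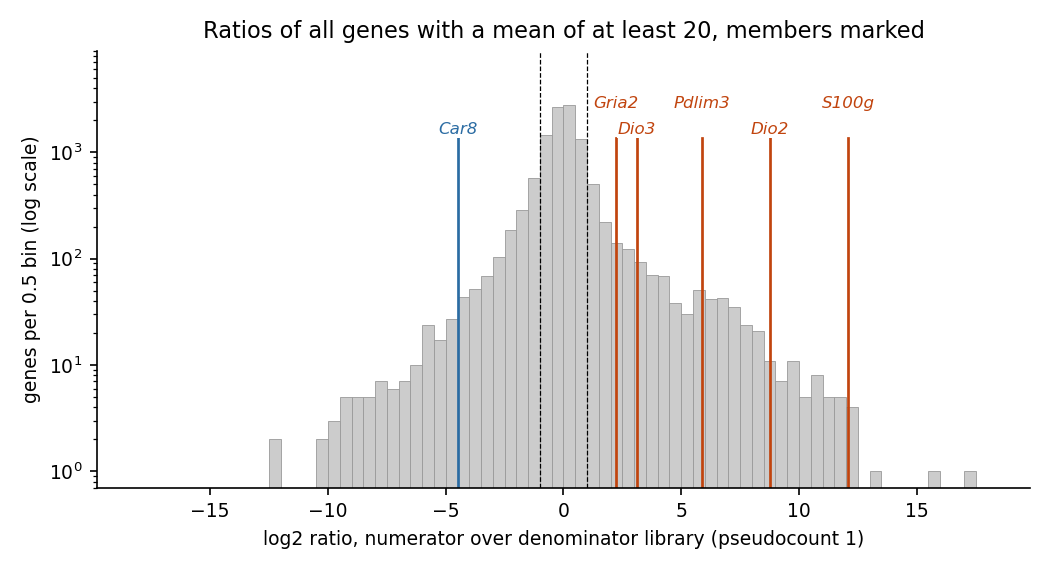
Number of genes per bin of 0.5 in the log2 ratio, numerator over denominator library, for the 11212 genes with a mean of at least 20 (log count axis), with the 6 members that had reads marked and dashed lines at 2-fold. Car8 lies at -4.49 and the other members lie between 2.23 for Gria2 and 12.10 for S100g.

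Set among all 11212 genes by log2 ratio, S100g ranked 7 from the top, Dio2 54, Pdlim3 235, Dio3 549 and Gria2 759. Car8 ranked 122 from the bottom. In percent, 0.473% of genes had a larger ratio than Dio2 and 6.76% a larger ratio than Gria2, while 1.08% had a smaller ratio than Car8.

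The authors' deposited table orders the members differently. Its log2 fold change was 2.84 for Pdlim3 (SE 1.24), 2.08 for Dio3 (SE 1.17), 1.65 for both Gria2 (SE 1.09) and Dio2 (SE 1.20), and -2.75 for Car8 (SE 1.20). For S100g the authors' deposited table gives only 0.43 (SE 0.84), rank 2941 from the top. In the authors' deposited table the unadjusted p was 0.0215 for Pdlim3, 0.0218 for Car8 and 0.607 for S100g, and the adjusted p was 0.999 for each, which is also the lowest adjusted p over all genes. A log2 fold change of at least 1 in size was deposited for 4 members as higher, against 10.5% of all genes, and for Car8 as lower, against 9.78%.

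The small deposited value of S100g is shared with a distinct set of genes. Solving the shrunken negative binomial model for the dispersion that returns each deposited value gave 9.999 for S100g, against 2.59 for Dio2, 1.19 for Pdlim3, 0.846 for Car8, 0.708 for Dio3 and 0.516 for Gria2. A dispersion above 9.9 was found for 24 genes above the minimum, all with 0 reads in a library and between 1185 and 136540 in the other. Their deposited log2 fold changes were all between 0.4295 and 0.4296 in size. The other 157 genes unread in a library had at most 1103 reads and deposited values from 0.74 to 1.82 in size. In the authors' deposited table, a gene with 435 reads against 0 (Dio2) thus has a larger fold change than a gene with 4421 against 0 (S100g).

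**Figure D4:**
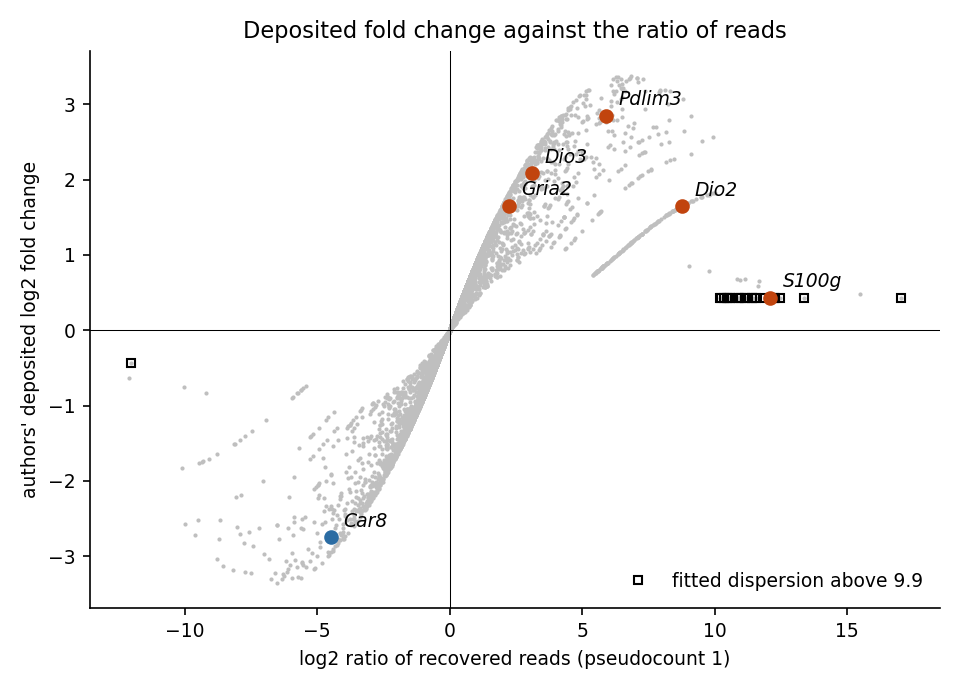
The authors' deposited log2 fold change against the log2 ratio of recovered reads (pseudocount of 1) for genes with a mean of at least 20, grey points, with the members in colour. Black squares are the 24 genes with a fitted dispersion above 9.9, which lie at a deposited value of 0.43 in size at every ratio shown, S100g among them.

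Genes next to the members on the chromosome were set beside them. For each member the 3 nearest genes with reads on each side were taken from RefSeq's gene order. Of 36 such neighbours above the minimum, 7 were higher, 9 were lower and 20 lay within 2-fold, with a median log2 ratio of 0.01, against 13.9% higher and 12.7% lower among all genes. The 6 neighbours of Car8 were between 1.43-fold lower (Tox, 1273 and 1793 reads) and 6.11-fold higher (Gdf6, 56 and 9 reads), and none was lower by the rule. Pdlim3 stood between Ufsp2 (10957 and 10253 reads) and Sorbs2, a muscle adaptor gene that was 2.62-fold lower.

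The deiodinase genes had neighbours that differed in both directions. Dio3 lies in an imprinted domain with the paternally expressed Dlk1 and the maternally expressed noncoding RNA gene Meg3. Meg3, listed in the table as RGD1566401, was read 556 and 0 times, 182-fold higher at the floor of 3 reads. Dlk1 had 69 and 146 reads and was 2.15-fold lower. On the other side of Dio3, Ppp2r5c and Dync1h1 were 1.12-fold and 1.20-fold higher, within the limit. Beside Dio2, Tshr, the thyrotropin receptor gene, had 68 and 10 reads (6.68-fold higher), and Nrxn3, a synaptic adhesion gene, had 10 and 103 (10.5-fold lower).

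**Figure D5:**
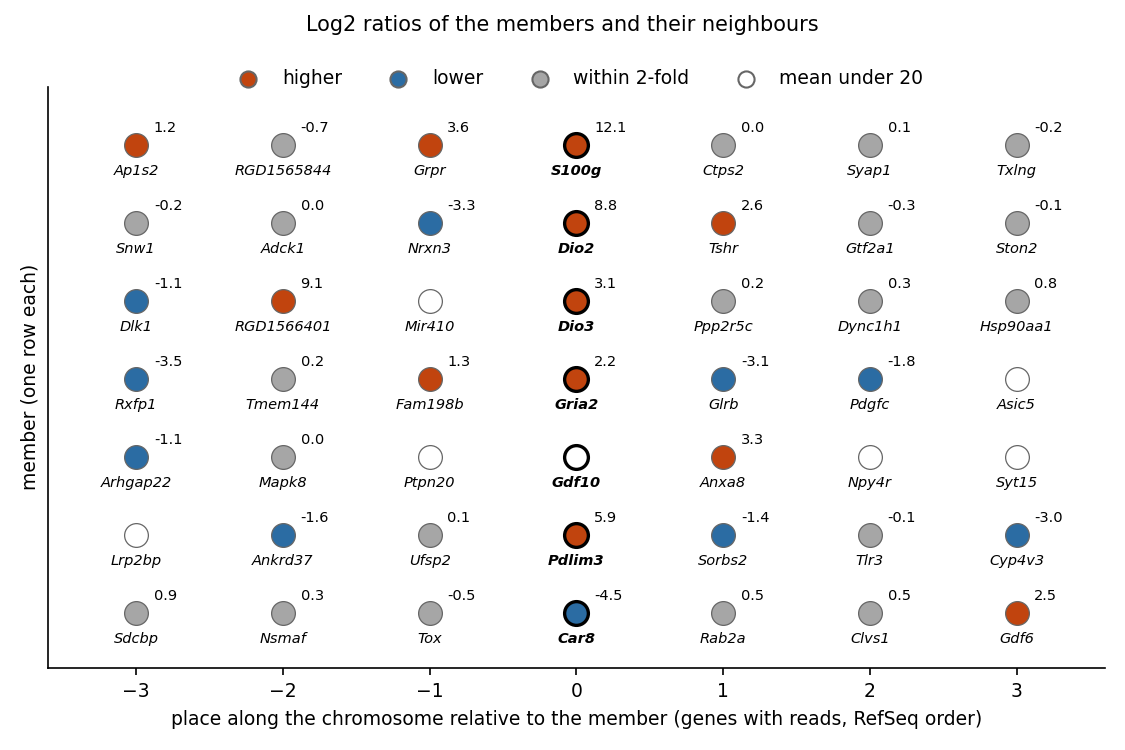
Log2 ratios, numerator over denominator library, of each member (centre, heavy outline) and of the 3 nearest genes with reads on each side in RefSeq's order, 1 row per member. Orange is higher, blue lower, grey within 2-fold and white under a mean of 20 or, for Gdf10, listed at 0; 20 of the 36 neighbours above the minimum are grey.

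Markers of other cell types differed between the libraries, and their part in the members' results was not tested. Summed pericyte markers were 44286 and 280924 normalised reads, with 4 of 5 above the minimum lower in the numerator library. Abcc9 alone made up 37.7 and 170176 of these. Cspg4 lay within 2-fold with 31833 and 28088 reads, and Rgs5, below the minimum, went the other way with 22 and 0 reads. For comparison with the marker counts here, 13.9% of all genes above the minimum were higher and 12.7% lower. Summed endothelial markers were 644 and 8077, of which Esam made up 72.3 and 5633. Of the endothelial markers above the minimum, 3 of 4 were lower and Tek was 8.11-fold higher, with Kdr and Emcn listed at 0. Fibroblast markers were 5168 and 9883 normalised reads in sum, with 3 of 5 higher and 2 lower. Macrophage markers were 295 and 400 in sum, 1 of 3 higher and 2 lower, with Adgre1 and Ptprc listed at 0.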

How the data were processed

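RNA was sequenced from 2 libraries of pooled myometrial progenitor cells, 1 per group, as single reads of 36 bp, per the labels' protocols. The tools listed in the submitters' processing notes are DESeq2, featureCounts, TopHat, SAMtools and FastQC, and the builds are rn5 and rn4, with no role or order. Versions, settings and strand use are unknown, not given in the sources used here. The authors' deposited table holds, per the file headers, a mean signal (reads divided by size factors, averaged over both libraries), a log2 fold change with its standard error, a test score (their quotient), and a p-value with its adjusted value. Of 17327 rows, 4106 are listed at 0, and 26 carry dates in place of gene names.

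Reads were recovered from each mean as whole numbers divided by the size factors 1.01 and 0.991, which are set by the smallest means. For 9307 of 13221 genes (70.4%), all 6 members with reads among them, 1 pair of whole numbers met the mean. For the other 3914 the pair whose shrunken negative binomial fit met the deposited standard error was taken, or, for fold changes under 0.001 in size, the pair with the nearest log2 ratio. In 6878 genes with 1 pair the largest gap between fitted and deposited standard errors was 2.39e-05. The recovery was tested on simulated data. A pseudocount of 1 normalised read went into log2 ratios and none into folds. Intervals are exact Clopper-Pearson intervals (95%) of the share of reads. PCR copies were not told apart by molecular identifiers, so intervals cover counting error only. With 1 library per group no test was run. Alternatives were the scaling, the pseudocount, the minimum, the interval, the fold, genes with 1 pair and the deposited fold change.

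The members and all lists were chosen with earlier results of these data known. All members were named, in each list up to 4 genes with the largest ratios above the minimum, and in the members' families any gene; other list genes were named for their role after their values were seen. Lists held 215 symbols, of which 204 matched directly, 1 matched by a RefSeq synonym and 10 were not used here; some list genes are not reported here. Promoters and gene order are from RefSeq (GRCr8), which held promoters for 3 of the 7 members. Python 3.11.15, numpy 2.4.6, pandas 2.3.3 and scipy 1.17.1 were used.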

Additional observations from a re-analysis of the deposited data

How the results depend on the processing

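Of 69 alternative values for the members' log2 ratios, their counts and median and the counts over all genes, 0 turned direction and 12 moved: a log2 ratio moved when it left the member's counting interval, a count when it changed by over 1.5 times and the median when it shifted by over 0.1. With a pseudocount of 5 the log2 ratio was 9.78 for S100g and 6.45 for Dio2, both unread in the denominator library, and the members' median was 4.30. With a pseudocount of 0.1 these were 15.42, 12.07 and 4.55, none counted as moved. The median had shifted by under 0.1, and the interval of an unread gene has no upper end. The size of the S100g and Dio2 ratios is thus set by the pseudocount. With the authors' deposited fold change, which is shrunken, the values were 0.43 for S100g, 1.65 for Dio2, 2.08 for Dio3, 1.65 for Gria2, 2.84 for Pdlim3 and -2.75 for Car8, with a median of 1.65; at a deposited value of at least 1 in size, 4 members were higher, S100g no longer among them, and 1 was lower, against 10.5% and 9.78% of all genes. A 4-fold limit left 838 genes higher and 573 lower and the same counts of members, 5 and 1. Another scaling moved the median of all genes by under 0.1 (log2). Gdf10, listed at 0, gave no ratio under any alternative. No replicate could be left out. No paired analysis was possible because each group has 1 library. Depth limits S100g and Dio2, whose ratios rest on a count of 0, and Gdf10, which has no ratio.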

Other observations

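Genes with the most similar pair of read numbers were sought for each member by the distance between log2 normalised reads (plus 1) of the 2 libraries. With only 2 coordinates per gene the likeness is a description. Nearest to S100g were Adra2a (4922 and 0 reads) and Cnr1 (3889 and 0 reads), genes for an adrenergic and a cannabinoid receptor. Nearest to Dio2 were Kcnn4, a calcium-activated potassium channel gene (478 and 0 reads), Tcf21 (394 and 0) and Ptger2, a prostaglandin E2 receptor gene (383 and 0). Nearest to Dio3 was Tek (553 and 67 reads), and nearest to Gria2 were Wasf1 (607 and 131) and Arnt2 (565 and 130). Pdlim3 was most like Matn4, a matrilin gene (861 and 16 reads), Hspa12b (933 and 12) and Myh1, a skeletal myosin gene (733 and 13). Car8 was most like Eps8l2 (53 and 1559 reads), its own relative Car6 (69 and 1128) and the transcription factor gene Tfap2a (77 and 1130).

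Listed genes of the IP3 receptors and the calcium store were mostly alike in both libraries. Of 9 above the minimum, 7 lay within 2-fold and 2 were higher in the numerator library, with a median log2 ratio of 0.20. Pln (phospholamban) had 2497 and 2545 reads, Stim1 had 4584 and 4830, and the pump gene Atp2a2 was 1.48-fold higher. Atp2a3 had 41 and 4 reads and was 10.1-fold higher (interval 3.65 to 38.7).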
